A study of Mus musculus with 32 samples.

Results

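The lysosomal genes described here are 47 genes in 7 roles: 6 subunits of the membrane-embedded Vo sector of the proton pump, 8 of its ATP-hydrolysing V1 sector, 2 accessory proteins of the pump, 8 membrane proteins, 4 soluble activators and lipid carriers of the lumen, 17 hydrolases and 2 transcription factors that act on lysosomal genes. Cathepsins are not among them. They were found by symbol in the 2 deposited tables of transcript counts, and the counts of all transcripts of a gene were summed. Of the 47, 46 were listed in each table, among 13377 genes of the female table and 11999 genes of the male table; Atp6v0d2, a Vo subunit, was listed in neither. Both tables hold only transcripts with 10 or more counts in at least 8 of 15 female or 9 of 17 male libraries, so a member could enter through the groups in which it was high.

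The libraries are bulk RNA-seq of microglia, the resident macrophages of the central nervous system, sorted by flow cytometry from mouse spinal cord on day 14. The genotype given for all 32 is Cx3Cr1-Cre;Rosa26-iDTR, in which the Cx3cr1 promoter drives Cre and Cre switches on the diphtheria toxin receptor. Among the female libraries 4 came from mice without depletion or fracture (resident, no fracture), 4 from mice with a fracture and no depletion (resident, fracture), 3 from depleted mice without fracture (repopulated, no fracture) and 4 from depleted mice with fracture (repopulated, fracture). The male table holds 3, 5, 2 and 7 libraries of the same groups. Depletion used tamoxifen followed by diphtheria toxin, per the design text. The sample descriptions use Wt or WT for libraries without depletion, and Dt (females) or iDTR (males) for depleted ones. The genotype label names the transgenes for both. Repopulation, toxin exposure and genotype cannot be told apart if toxin exposure or genotype differed. Sex, library kit and count table change together, so each table was analysed apart and the female and male values were not tested against each other. The labels do not say that replicates are separate animals, and the spread behind each p-value, taken between libraries, may then be technical.

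The lysosome is kept acidic by the V-type ATPase, in which the V1 sector hydrolyses ATP in the cytosol and the Vo sector carries protons across the membrane. Its membrane is lined by heavily glycosylated proteins such as LAMP1 and LAMP2, and its lumen holds hydrolases for glycans, glycolipids, proteins and lipids together with small proteins that present lipids to them. TFEB and TFE3 bind E-box sequences of the CLEAR type in front of many of these genes. Microglia take up debris and synaptic material and degrade it in this compartment, and inherited loss of several of the genes causes lysosomal storage disease.

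The motif that TFEB and TFE3 recognise can be read in the promoters of some members. In RefSeq promoters of GRCm38.p6, each 250 bases before to 50 after a start, 40 members matched 47 windows by symbol. The E-box CACGTG, which reads the same on both strands, lay in 13 of the 47 windows (27.7%) and in 7.15% of all 32851 windows. The longer TCACGTG, searched on both strands and containing that E-box, lay in the same number of windows, 13 of 47, against 3.77% of all windows. The full palindrome TCACGTGA lay in 5 of 47 (10.6%) against 0.974%. A match was found for 5 of the 17 matched members that rose in at least 1 comparison below and for 8 of the 23 that did not. The windows shown are 100 bases of genomic sequence, 5′ to 3′ on the gene's strand, with the motif in capitals; 3 belong to genes that rose in repopulated microglia and 3 to genes that were not called. They show that the same letters stand in front of both kinds of gene. Lamp1 (chr8:13159061-13159160, plus strand) has 4 E-boxes between 61 and 15 bases before its start. Glb1 (chr9:114400978-114401077, plus strand) has 1, at 48 bases, and Gaa (chr11:119267793-119267892, plus strand) has 1, at 140 bases. Of the uncalled genes, Atp6v0b (chr4:117887330-117887429, minus strand) has 2, at 36 and 18 bases, Atp6v1a (chr16:44139321-44139420, minus strand) has 1, at 131 bases, and Arsa (chr15:89477425-89477524, minus strand) has 1, at 16 bases. These matches are a description of letters; binding was not measured.
Lamp1: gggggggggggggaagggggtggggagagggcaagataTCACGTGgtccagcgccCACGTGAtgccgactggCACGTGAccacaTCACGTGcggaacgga
Glb1: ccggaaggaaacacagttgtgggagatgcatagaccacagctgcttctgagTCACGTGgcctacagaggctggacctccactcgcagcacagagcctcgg
Gaa: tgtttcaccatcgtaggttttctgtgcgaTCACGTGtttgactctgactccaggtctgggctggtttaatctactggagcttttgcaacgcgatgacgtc
Atp6v0b: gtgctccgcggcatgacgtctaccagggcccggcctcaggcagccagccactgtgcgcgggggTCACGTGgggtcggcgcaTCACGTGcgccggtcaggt
Atp6v1a: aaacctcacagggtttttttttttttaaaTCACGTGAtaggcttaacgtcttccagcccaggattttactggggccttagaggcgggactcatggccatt
Arsa: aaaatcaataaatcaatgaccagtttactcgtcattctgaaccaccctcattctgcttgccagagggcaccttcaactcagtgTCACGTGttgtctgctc

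Library totals ran from 16438827 to 18654165 counts in the female table and from 5722993 to 33697535 counts in the male table. All 10 microglial marker genes on the list used here were listed in both tables, with summed levels of 31210 to 40810 counts-per-million (CPM) in the female and 31470 to 42960 CPM in the male libraries. Markers of other cell types are given with the last results. Of the female libraries 3 stood apart: resident, no fracture replicates 1 and 2 and repopulated, no fracture replicate 1 had 94, 72 and 87 of 5206 well-expressed genes at less than 0.25 times the table's median, against 12 or fewer in any other female library. Female results that compare them are given below also without them, as medians over the members and for some of the genes. Male libraries carry sample labels from V64 to V79 (11 libraries) or V99 to V110 (6 libraries); the labels do not call these batches, and every male library without fracture belongs to the first range.

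Repopulated microglia carried higher transcript levels of many lysosomal genes than resident microglia, in both tables and with or without fracture. Luminal activators and hydrolases made up most of the genes called higher, and 1 of 15 listed proton pump genes was. By the sign of the fold change 14 and 11 of these 15 were higher in females without and with fracture. In males 11 and 12 were. A gene that was not called was not shown to be unchanged. A gene is called here when edgeR's quasi-likelihood test gives a Benjamini-Hochberg adjusted p under 0.05 over all genes of the table, and fold changes are log2 of repopulated over resident with their standard error (SE). Without fracture 12 of 46 members rose in females, where 2.53% of all genes were called and 1.56% were called higher. With fracture 7 of 46 rose in females, against 2.35% of all genes called and 1.27% called higher. In males 16 of 46 rose without fracture, against 7.42% of all genes called and 4.7% called higher. With fracture 12 of 46 rose in males, against 4.91% of all genes called and 3.03% called higher. No member was called lower in any of the 4 comparisons. Bulk libraries cannot tell a change in the share of cells from a change in RNA per cell.

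The shift went beyond the called members. In the same order (female without and with fracture, male without and with fracture) the log2 fold change was positive for 40, 36, 39 and 38 of 46 members, and its median over the 46 was 0.21, 0.21, 0.27 and 0.15, against -0.02, 0.00, -0.03 and 0.00 over all genes of the table. An unadjusted p under 0.05 was reached by 24, 22, 27 and 27 members, against 15.3%, 13.7%, 18.9% and 15.7% of all genes. The groups did not overlap for 23, 23, 29 and 11 members, against 13.3%, 11.9%, 35.4% and 3.58% of all genes, of which the third compares only 3 and 2 libraries. Glb1, Gusb, Hexa, Man2b1 and Npc2 rose in all 4 comparisons, 13 further members rose in 1 to 3 of them, and 28 rose in none. A fit with library totals alone, without the scaling factors, gave median log2 fold changes over all genes of -0.11, -0.09, -0.12 and -0.05. In the same order 7, 4, 14 and 10 members were then called higher. Members called lower numbered 1 (Atp6v0a1), 0, 0 and 2 (Laptm5 and Tfe3). Of all genes 116, 110, 442 and 303 were called higher and 228, 276, 501 and 338 lower. Lower calls thus outnumbered higher ones over all genes in this fit, while among members higher calls were more frequent.

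**Figure D1:**
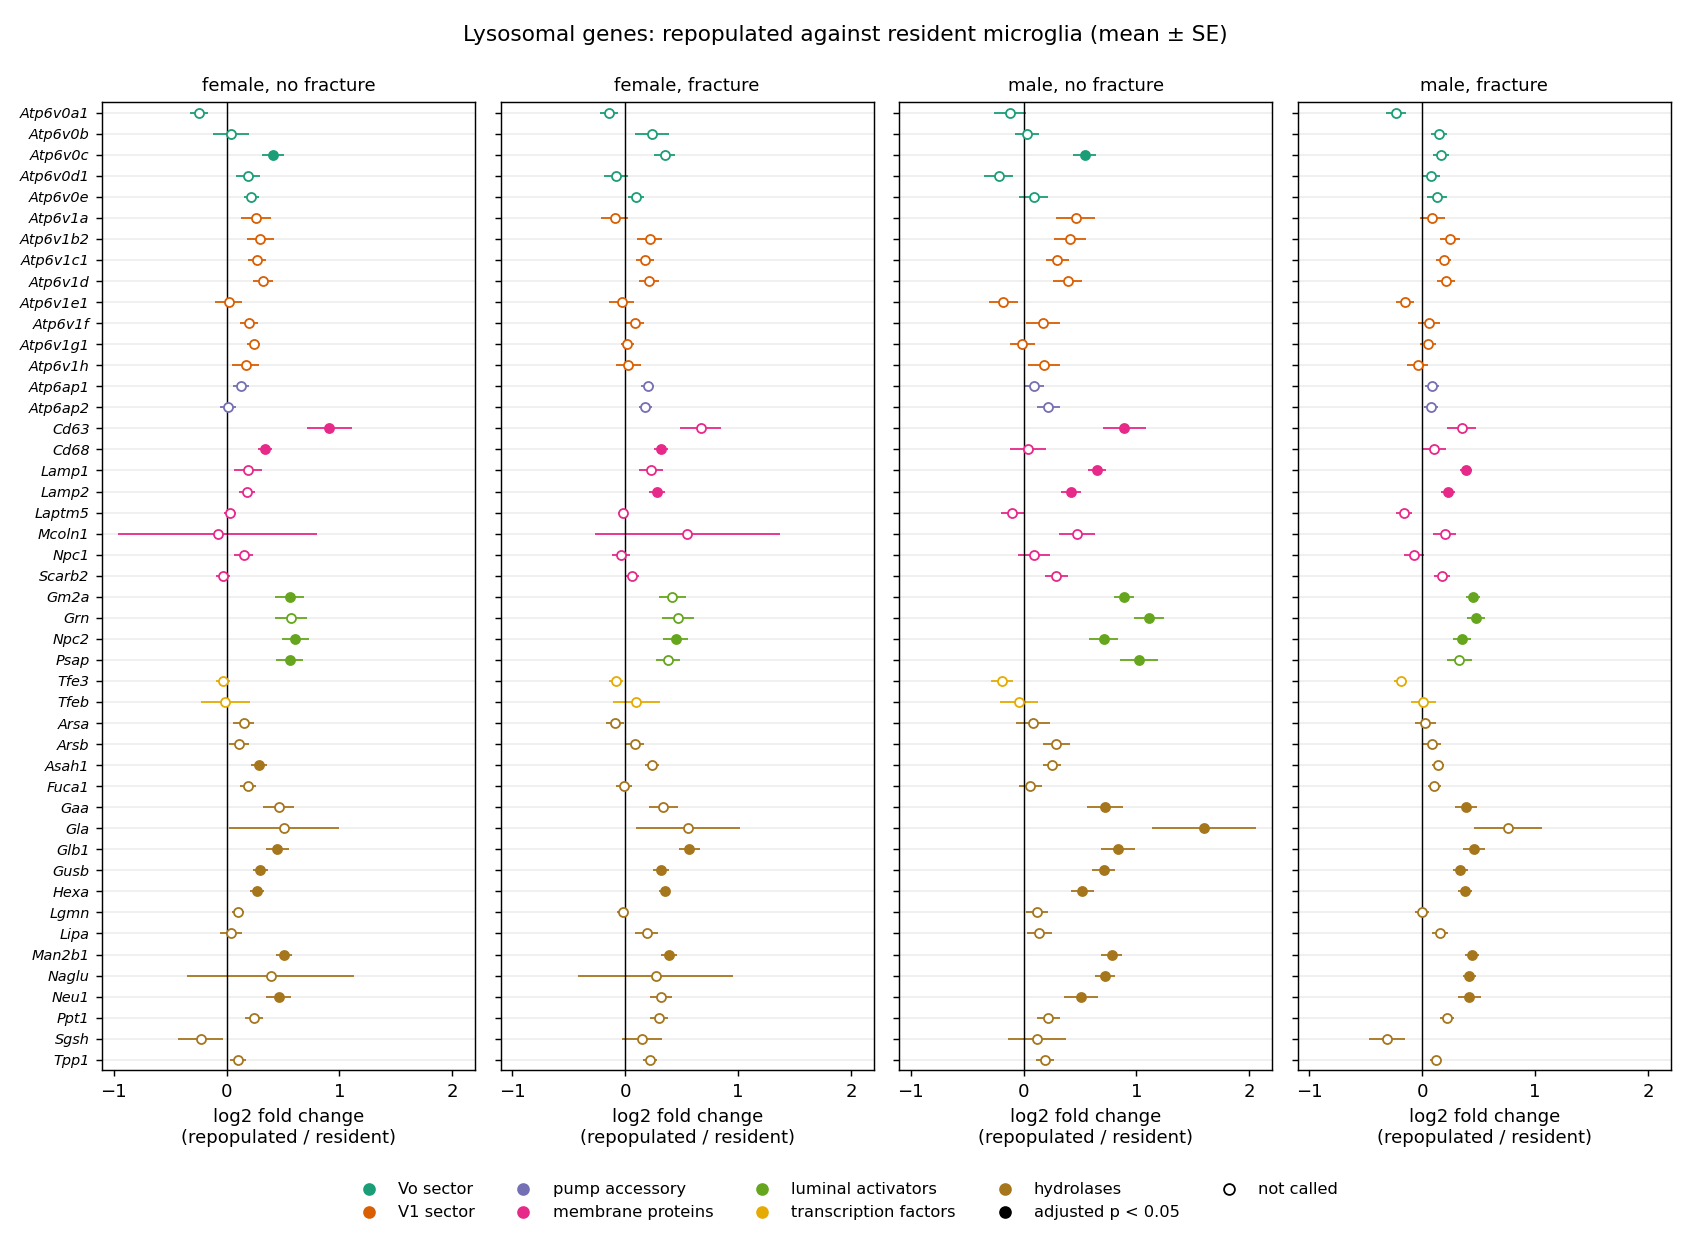
Log2 fold change of repopulated over resident microglia for each of the 46 listed members (rows, coloured by role), with SE as bars, in 4 panels for female and male libraries without and with fracture; filled points are called (edgeR adjusted p under 0.05). The 4 luminal activators lie between 0.33 and 1.11, while the proton pump genes lie between -0.24 and 0.54.

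The female counts rest on few libraries. Without fracture the count of 12 became 7, 6, 17 and 2 when resident replicates 1, 2, 3 and 4 were left out in turn, and 1, 4 and 8 when repopulated replicates 1, 2 and 3 were; Man2b1 stayed called in every such fit. Over all genes the count of 338 became 222, 183, 612 and 135, and 51, 133 and 209, in the same fits. Without the 3 libraries that stood apart, 2 resident and 2 repopulated libraries were left. Then 0 of 46 members passed in edgeR's test, and 1 of all 13377 genes did. All 12 members kept a higher level, with a median log2 fold change of 0.37 in place of 0.45. Over all 46 members the median without them was 0.18 in place of 0.21, with 38 positive values; across fracture it was -0.06 in place of -0.03 in resident and -0.08 in place of -0.11 in repopulated libraries, and for the interaction 0.03 in place of -0.06. With fracture, where no library that stood apart is compared, the count of 7 became 4 without each of the resident replicates or without repopulated replicate 1 or 2, 5 without replicate 3 and 7 without replicate 4, and it became 11 in the fit without those 3 libraries. Of all genes 593 were called in that fit and 106 to 233 in the single leave-outs, against 315 with all libraries. Cd68, Glb1, Hexa and Man2b1 stayed called in each of the single leave-outs. In males the counts moved less: 10 to 17 without fracture (10 without repopulated replicate 2; leaving out either repopulated library leaves 1, whose spread is taken from the other groups) and 9 to 13 with fracture. Within the V64 to V79 labels 3 members (Gm2a, Man2b1 and Naglu) passed in males with fracture, and 0 within V99 to V110, where 2 resident and 4 repopulated libraries remain. Of all genes 80 of 11999 and 43 of 11959 were called in these fits, against 589 of 11999 with all libraries. All 12 members called with all libraries were higher in both ranges, with medians of 0.31 and 0.49.

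Of the 15 listed genes of the proton pump 1 was called. Atp6v0c, which encodes the proteolipid subunit of the ring that carries protons, rose without fracture in both tables. In females its level was 522, 471, 634 and 466.2 CPM in the resident and 762, 692 and 637 CPM in the repopulated libraries. All repopulated libraries lay above all resident ones, although the gap to the highest resident library was small. The log2 fold change was 0.41 ± 0.10 (SE; edgeR adjusted p = 0.041), and 0.28 ± 0.13 (adjusted p = 0.508) without the 3 libraries that stood apart. In males without fracture its level was 788, 674 and 610.1 CPM in the resident and 933 and 1076 CPM in the repopulated libraries, again without overlap. The log2 fold change was 0.54 ± 0.10 (adjusted p = 0.00214). With fracture it was 0.35 ± 0.09 in females (adjusted p = 0.0626, groups without overlap) and 0.17 ± 0.07 in males (adjusted p = 0.191, groups overlapping), and neither passed.

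Other Vo subunits went either way. Atp6v0a1, an isoform of the a subunit that is abundant in neurons, had negative values in all 4 comparisons. In females without fracture it stood at 214, 223, 239.6 and 205 CPM in resident and 194, 174 and 191 CPM in repopulated libraries, so that every repopulated library lay below every resident one. The log2 fold change was -0.24 ± 0.08 (edgeR adjusted p = 0.164), and in males with fracture -0.23 ± 0.09 (adjusted p = 0.174), neither past the threshold. Atp6v0d1 had the lowest value of the pump in males without fracture, at -0.22. The median over the 5 listed Vo genes was 0.19, 0.10, 0.03 and 0.13 in the 4 comparisons; with library totals alone it was 0.10, 0.01, -0.06 and 0.09, so its sign in males without fracture depended on the scaling.

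None of the 8 V1 subunits and neither accessory protein was called. In females without fracture all 8 V1 genes had positive values, with 5 at an unadjusted p under 0.05 (15.3% of all genes) and 4 with groups that did not overlap (13.3% of all genes). Atp6v1d, a subunit of the central stalk, had the largest at 0.32 ± 0.09 (edgeR adjusted p = 0.0862). In males Atp6v1d was 0.39 ± 0.13 (adjusted p = 0.0778). Without the 3 female libraries that stood apart 6 of the 8 values were positive and 2 had an unadjusted p under 0.05. Female Atp6v1d was then 0.24 ± 0.11 (edgeR adjusted p = 0.498). Atp6v1a, the catalytic subunit, read 63.6, 55.4 and 68.9 CPM in male resident and 89.9 and 82.7 CPM in male repopulated libraries without fracture. That separation gave a log2 fold change of 0.46 ± 0.17 (adjusted p = 0.116). The V1 medians were 0.25, 0.06, 0.24 and 0.07; with library totals alone the second became -0.03. DESeq2 called 2 V1 genes higher in females without fracture (Atp6v1d and Atp6v1g1) and 3 in males without fracture (Atp6v1b2, Atp6v1c1 and Atp6v1d), none with fracture; it called 5.05% and 9.74% of all genes in the first pair of comparisons. For Atp6ap1 and Atp6ap2, the accessory proteins, the median was 0.07, 0.19, 0.16 and 0.09, and -0.02 in the first comparison with library totals alone.

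Among the 8 membrane proteins 4 rose in at least 1 comparison, and the genes that passed were not the same in each table. Cd63, a tetraspanin of late endosomes and exosomes, read 297, 268, 518 and 306 CPM in female resident and 755, 640.2 and 567.97 CPM in female repopulated libraries without fracture. Resident replicate 3 was the only resident library near the repopulated ones, and the groups did not overlap. The log2 fold change was 0.91 ± 0.20 (edgeR adjusted p = 0.0283), and 0.56 ± 0.22 (adjusted p = 0.444) without the 3 libraries that stood apart. In males without fracture Cd63 read 631, 446 and 398 CPM against 806 and 1017 CPM, a log2 fold change of 0.89 ± 0.19 (adjusted p = 0.00555). With fracture it was 0.67 ± 0.18 in females (adjusted p = 0.0763) and 0.35 ± 0.13 in males (adjusted p = 0.13).

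Cd68, the macrosialin of phagocytes, rose in females and was not called in males. Its female levels were 986, 1033, 976 and 932 CPM against 1298, 1207 and 1235 CPM without fracture. The female groups were tight and apart, with a log2 fold change of 0.34 ± 0.06 (edgeR adjusted p = 0.00988) without and 0.32 ± 0.06 (adjusted p = 0.00985) with fracture. In males Cd68 read 1787, 1419 and 1185 CPM against 1339 and 1681 CPM without fracture, and the log2 fold change was 0.04 ± 0.16 (adjusted p = 0.939). The male resident libraries alone spanned the repopulated ones, and the difference between females and males was not tested. Lamp1, a main glycoprotein of the lysosomal membrane, had the reverse pattern of calls. In males without fracture it read 1940, 1894 and 1862 CPM in resident and 2914 and 3056 CPM in repopulated libraries, with a log2 fold change of 0.65 ± 0.08 (adjusted p = 4.52e-05). With fracture the 5 resident libraries ran from 1852 to 2043 CPM, with a median of 1919, and the 7 repopulated ones from 2379 to 2954 CPM, with a median of 2544, and the log2 fold change was 0.39 ± 0.05 (adjusted p = 0.000199). In females, where its level was 62.4 to 92.6 CPM, Lamp1 had 0.19 ± 0.12 (adjusted p = 0.49) and 0.23 ± 0.11 (adjusted p = 0.356).

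Lamp2, whose splice forms serve lysosome stability and chaperone-mediated autophagy, rose in 3 of the 4 comparisons: 0.28 ± 0.07 in females with fracture (edgeR adjusted p = 0.0322), 0.42 ± 0.09 in males without (adjusted p = 0.00624) and 0.23 ± 0.06 in males with fracture (adjusted p = 0.0285). In females without fracture it was 0.18 ± 0.07 (edgeR adjusted p = 0.22). The female call with fracture held in 1 of 8 leave-outs and was lost with library totals alone and with the replicate block. The male call with fracture held in 8 of 12 and was lost under the same settings and with the most abundant transcript. The male call without fracture was lost with the most abundant transcript. In the male libraries with fracture the groups overlapped, at 864 to 1020 CPM in resident and 959 to 1185 CPM in repopulated. Transcript Lamp2-202 held 75.7% (females) and 70.8% (males) of the gene's counts. The share of Lamp2-201 was 26.3% ± 0.20 (SD, n = 3) in female repopulated, no fracture libraries and 22.0% ± 1.97 (SD, n = 4) in resident ones, a shift that was not tested. Laptm5 (-0.16 to 0.03), the cholesterol exporter gene Npc1 (-0.07 to 0.15) and the receptor gene Scarb2 (-0.03 to 0.29) were not called, nor was Mcoln1, the calcium channel of the lysosome. The median over the 8 membrane proteins was 0.16, 0.26, 0.35 and 0.19.

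The 4 luminal activators and carriers had the highest median of any role in every comparison, at 0.57, 0.43, 0.95 and 0.40, and with library totals alone it was 0.48, 0.34, 0.86 and 0.36. Progranulin is cut to granulins in the lysosome, and its gene Grn (chromosome 11, 102430315 to 102437048, plus strand) was called in males in both comparisons. Male resident libraries without fracture read 3653, 3483 and 3388 CPM and the repopulated ones 7171 and 7940 CPM. Both repopulated libraries lay far above every resident one, with a log2 fold change of 1.11 ± 0.13 (edgeR adjusted p = 2.05e-05). With fracture the 5 resident libraries ran from 3565 to 4225 CPM, with a median of 3827, and the 7 repopulated ones from 4226 to 6710 CPM, with a median of 5136, a log2 fold change of 0.48 ± 0.08 (adjusted p = 0.00157). Those groups touched without overlapping. In females Grn read 4713, 3183, 5016 and 3151 CPM against 6447, 5619 and 5771 CPM without fracture. The female resident libraries split into a higher and a lower pair, and the log2 fold change of 0.57 ± 0.14 missed the threshold (adjusted p = 0.0565), as did 0.47 ± 0.14 with fracture (adjusted p = 0.0911), although neither pair of groups overlapped.

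Psap (chromosome 10, 60277627 to 60302597, plus strand) encodes prosaposin, the precursor of the saposins that lift glycolipids to their hydrolases. In females without fracture it read 6166, 4934, 7710 and 5152 CPM against 9526, 8529 and 8521 CPM, a log2 fold change of 0.56 ± 0.12 (edgeR adjusted p = 0.0237). It stayed called in 3 of 7 leave-outs and was 0.41 ± 0.14 (adjusted p = 0.354) without the 3 libraries that stood apart. In males without fracture it read 3692.5, 4397 and 3883 CPM against 6034 and 10142 CPM, a log2 fold change of 1.02 ± 0.17 (adjusted p = 0.000688). The male repopulated libraries differed widely between themselves, and both lay above every resident library. Psap stayed called there in all 5 leave-outs (adjusted p up to 0.0474), at 0.60 without repopulated replicate 2 and 1.35 without replicate 1. With fracture the value was 0.38 ± 0.11 in females (adjusted p = 0.0908) and 0.33 ± 0.11 in males (adjusted p = 0.101), and neither passed.

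Gm2a (chromosome 11, 55098115 to 55113029, plus strand) encodes the activator that presents ganglioside GM2 to hexosaminidase A. It read 507, 487 and 459 CPM in male resident and 887 and 907 CPM in male repopulated libraries without fracture. These were tight groups far apart, with a log2 fold change of 0.89 ± 0.09 (edgeR adjusted p = 8.07e-06), and with fracture it was 0.45 ± 0.06 (adjusted p = 0.000179). In females Gm2a rose without fracture by 0.56 ± 0.13 (adjusted p = 0.0339), or 0.36 ± 0.14 (adjusted p = 0.418) without the 3 libraries, and with fracture it was 0.42 ± 0.12 (adjusted p = 0.0883). Npc2 (chromosome 12, 84754562 to 84773152, minus strand), the soluble cholesterol carrier of the lumen, was the member of this role called in all 4 comparisons. It stood at 476 ± 92.1 CPM (SD, n = 4) in female resident and 725 ± 57.4 CPM (SD, n = 3) in female repopulated libraries without fracture. The log2 fold changes were 0.61 ± 0.12 (adjusted p = 0.0174), 0.45 ± 0.11 (adjusted p = 0.0486), 0.71 ± 0.13 (adjusted p = 0.000895) and 0.35 ± 0.08 (adjusted p = 0.0136), with no overlap between groups in any of the 4. In females with fracture the call was lost in each of the 8 leave-outs (adjusted p up to 0.148), with library totals alone, with the most abundant transcript only and with the replicate block. In males with fracture it was lost with the replicate block (0.28, adjusted p = 0.124) and within either range of sample labels.

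**Figure D2:**
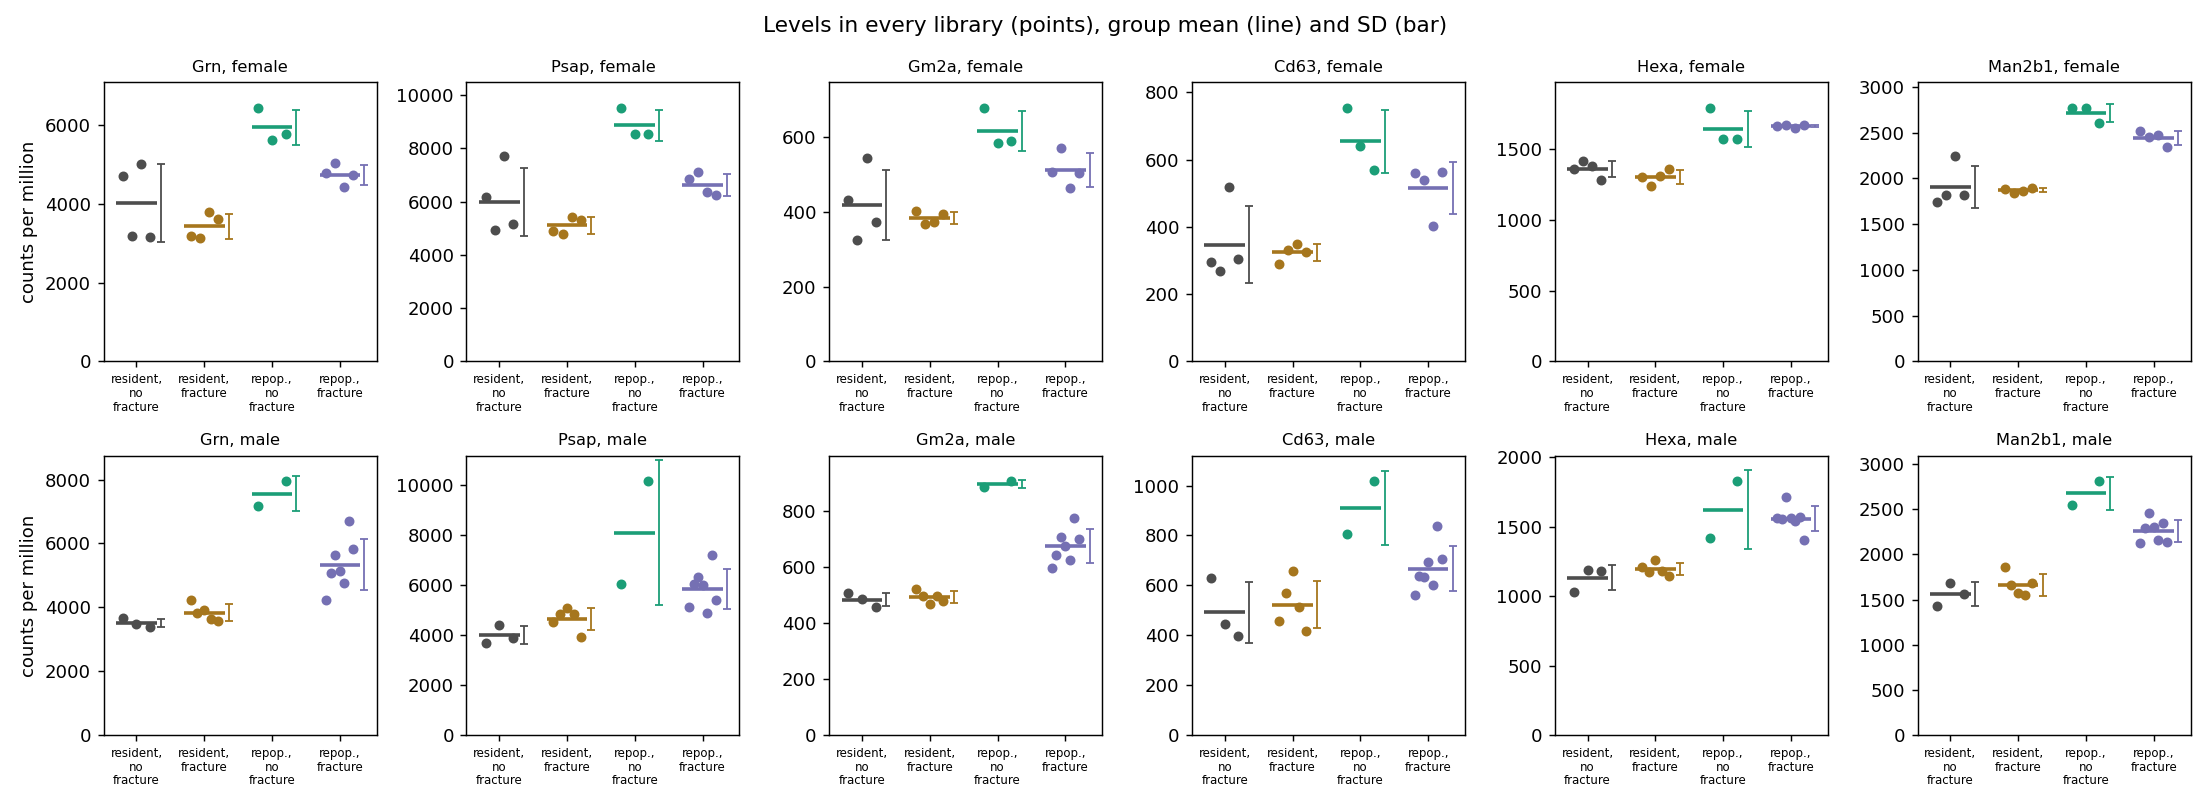
Level in every library (points; counts-per-million, axis from 0), group mean (line) and SD (bar) of Grn, Psap, Gm2a, Cd63, Hexa and Man2b1 in the female (top) and male (bottom) tables, by group. Male Gm2a lies at 459 to 507 CPM in resident, no fracture and 887 to 907 CPM in repopulated, no fracture libraries, with the repopulated, fracture libraries between them.

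Hydrolases rose in 6, 4, 8 and 7 of 17 cases in the 4 comparisons, 9 different genes in all, and none fell. Their median was 0.27, 0.27, 0.29 and 0.22, and 0.19, 0.18, 0.19 and 0.18 with library totals alone. Man2b1 (chromosome 8, 85083270 to 85098282, plus strand) encodes alpha-mannosidase and stayed called in every leave-out of a single library in all 4 comparisons. In females without fracture it read 1741, 1813, 2248 and 1814 CPM against 2768, 2772 and 2606 CPM. Resident replicate 3 again stood above the other resident libraries and still below every repopulated one. The log2 fold changes of Man2b1 were 0.51 ± 0.07 (edgeR adjusted p = 0.00572), 0.39 ± 0.07 (adjusted p = 0.00994), 0.78 ± 0.09 (adjusted p = 2.05e-05) and 0.44 ± 0.06 (adjusted p = 0.000166).

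Glb1 (chromosome 9, 114401076 to 114474898, plus strand), the beta-galactosidase also used as a senescence stain, read 107, 99.6, 115 and 120.0 CPM in female resident and 159.9, 168, 151 and 177 CPM in female repopulated libraries with fracture. The groups lay clearly apart, with a log2 fold change of 0.57 ± 0.09 (edgeR adjusted p = 0.00834). In males without fracture it read 101.7, 115 and 111 CPM against 193 and 198 CPM, a log2 fold change of 0.84 ± 0.15 (adjusted p = 0.00131). Hexa (chromosome 9, 59539540 to 59565109, plus strand), the alpha chain of hexosaminidase A, whose loss causes Tay-Sachs disease, stood in females with fracture at 1306, 1244, 1315 and 1362 CPM against 1663, 1675, 1655 and 1675 CPM. Its log2 fold changes were 0.27 ± 0.06, 0.35 ± 0.05, 0.52 ± 0.10 and 0.38 ± 0.06, with adjusted p of 0.0205, 0.00566, 0.00154 and 0.000943. Gusb, the beta-glucuronidase, rose by 0.30 ± 0.07, 0.32 ± 0.07, 0.71 ± 0.10 and 0.34 ± 0.07, with adjusted p of 0.0421, 0.024, 0.000146 and 0.00382. Hexa and Gusb were thus higher in repopulated libraries without overlap between groups in all 4 comparisons. In females without fracture the calls held in 5 of 7 (Hexa) and 2 of 7 (Gusb) leave-outs. Both were lost there with library totals alone, the replicate block and only the groups compared. Gusb was 0.30 ± 0.09 (edgeR adjusted p = 0.285) there without the 3 libraries. With fracture the female Gusb call held in 2 of 8 leave-outs and was lost with library totals alone. The male one held in all 12.

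The other called hydrolases passed in some comparisons only. Neu1, the sialidase, rose in females without fracture by 0.46 ± 0.11 (edgeR adjusted p = 0.0345). In males it rose by 0.51 ± 0.15 without (adjusted p = 0.0444) and 0.42 ± 0.10 with fracture (adjusted p = 0.0136). Both calls without fracture were lost with library totals alone, the most abundant transcript, the replicate block and only the groups compared. The female call held in 1 of 7 leave-outs, and the male value without fracture ran from 0.39 to 0.61. The male call with fracture was lost with the most abundant transcript and with the replicate block. Gaa, the acid alpha-glucosidase that breaks down glycogen, rose in males by 0.72 ± 0.16 without (adjusted p = 0.00593) and 0.39 ± 0.10 with fracture (adjusted p = 0.0321), and in females it was 0.46 ± 0.14 (adjusted p = 0.0967) without. Asah1, the acid ceramidase, rose in females without fracture by 0.29 ± 0.07 (edgeR adjusted p = 0.0365). That call held in 2 of 7 leave-outs and was lost with library totals alone, the replicate block and only the groups compared. Gla, the alpha-galactosidase A, was among the low genes: its male resident libraries without fracture read 3.71, 1.85 and 6.28 CPM and the repopulated ones 13.6 and 11.1 CPM. Its log2 fold change of 1.60 ± 0.46 (adjusted p = 0.0344) was the largest of all members in that comparison and had a wide error. The call held in 1 of 5 leave-outs (1.32 to 2.11, adjusted p up to 0.166) and was lost with library totals alone, with the replicate block and in a fit of only the groups compared. Naglu, an N-acetylglucosaminidase of heparan sulphate breakdown, read 334, 352 and 332 CPM against 556 and 563 CPM in males without fracture. It rose there by 0.72 ± 0.09 (adjusted p = 2.35e-05) and with fracture by 0.42 ± 0.06 (adjusted p = 0.000154). The remaining 8 hydrolases (Arsa, Arsb, Fuca1, Lgmn, Lipa, Ppt1, Sgsh and Tpp1) were not called; their lowest value was -0.31 for Sgsh in males with fracture, and the nearest to the threshold was Ppt1 in males with fracture, at 0.22 ± 0.06 (adjusted p = 0.0503).

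In females without fracture Naglu could not be read the same way. Its level without fracture was 22.9, 50.1, 276 and 252 CPM in resident and 45.9, 236 and 311 CPM in repopulated libraries. The low values fell in the 3 libraries that stood apart. The log2 fold change of 0.39 had an SE of 0.74 (edgeR adjusted p = 0.873). Mcoln1 was lowest in the same 3 libraries and also low in repopulated replicate 2, with 15.8, 16.5, 155 and 187 CPM in resident and 12.6, 74.0 and 178 CPM in repopulated libraries, and a log2 fold change of -0.08 ± 0.88. Without the 3 libraries Naglu was at 0.05 ± 0.14 (edgeR adjusted p = 0.948) and Mcoln1 at -0.43 ± 0.37 (edgeR adjusted p = 0.762). With fracture female Naglu read 206 to 272 CPM in resident and 280 to 311 CPM in repopulated libraries. Mcoln1 read 112 to 185 CPM and 193 to 284 CPM there. Neither pair of groups overlapped, as for 11.9% of all genes. The log2 fold changes were 0.27 and 0.55, and neither gene was called. In males Mcoln1 stood at 77.6, 69.7 and 71.3 CPM against 103 and 100.1 CPM without fracture, a log2 fold change of 0.47 ± 0.16 (adjusted p = 0.0691) without overlap between groups.

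**Figure D3:**
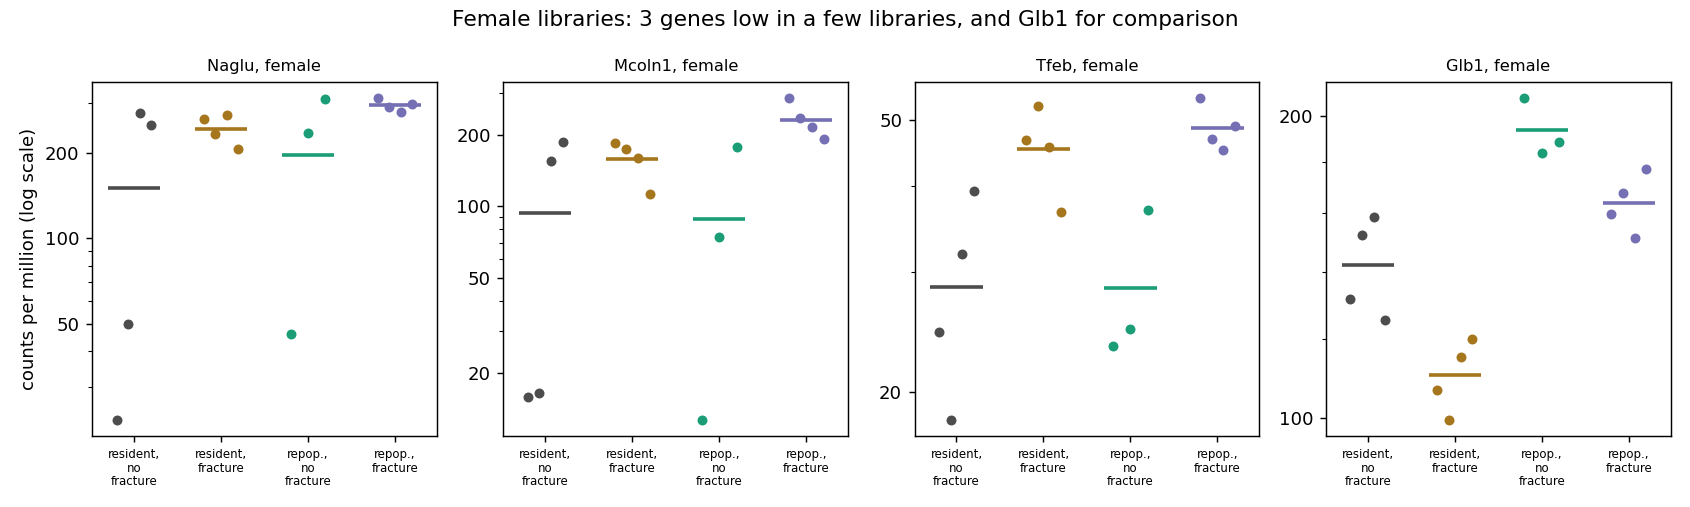
Levels of Naglu, Mcoln1, Tfeb and Glb1 in each female library (points; counts-per-million on a log axis, with a range of its own in each panel) and group means (lines). Naglu falls to 22.9 and 50.1 CPM in resident, no fracture replicates 1 and 2 and to 45.9 CPM in repopulated, no fracture replicate 1, while Glb1 shows no such drop in these libraries.

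Neither transcription factor was called in any comparison. Tfe3 read 227, 250.8, 231 and 222 CPM in female resident and 219, 226 and 238 CPM in female repopulated libraries without fracture, a log2 fold change of -0.03. In males it was -0.19 ± 0.10 without (edgeR adjusted p = 0.345) and -0.19 ± 0.06 with fracture (adjusted p = 0.0871). Tfeb had log2 fold changes of -0.01, 0.10, -0.04 and 0.01. Across fracture in females Tfeb had positive values, 0.67 ± 0.21 in resident (adjusted p = 0.94) and 0.78 ± 0.23 in repopulated libraries (adjusted p = 0.339), neither called. Its female resident libraries without fracture read 24.5, 18.2, 31.9 and 39.4 CPM, the lower ones being those that stood apart, and with fracture 46.7, 52.4, 45.6 and 36.6 CPM. Without the 3 libraries the values were 0.35 ± 0.18 (adjusted p = 1.0) and 0.64 ± 0.19 (adjusted p = 0.313).

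**Figure D4:**
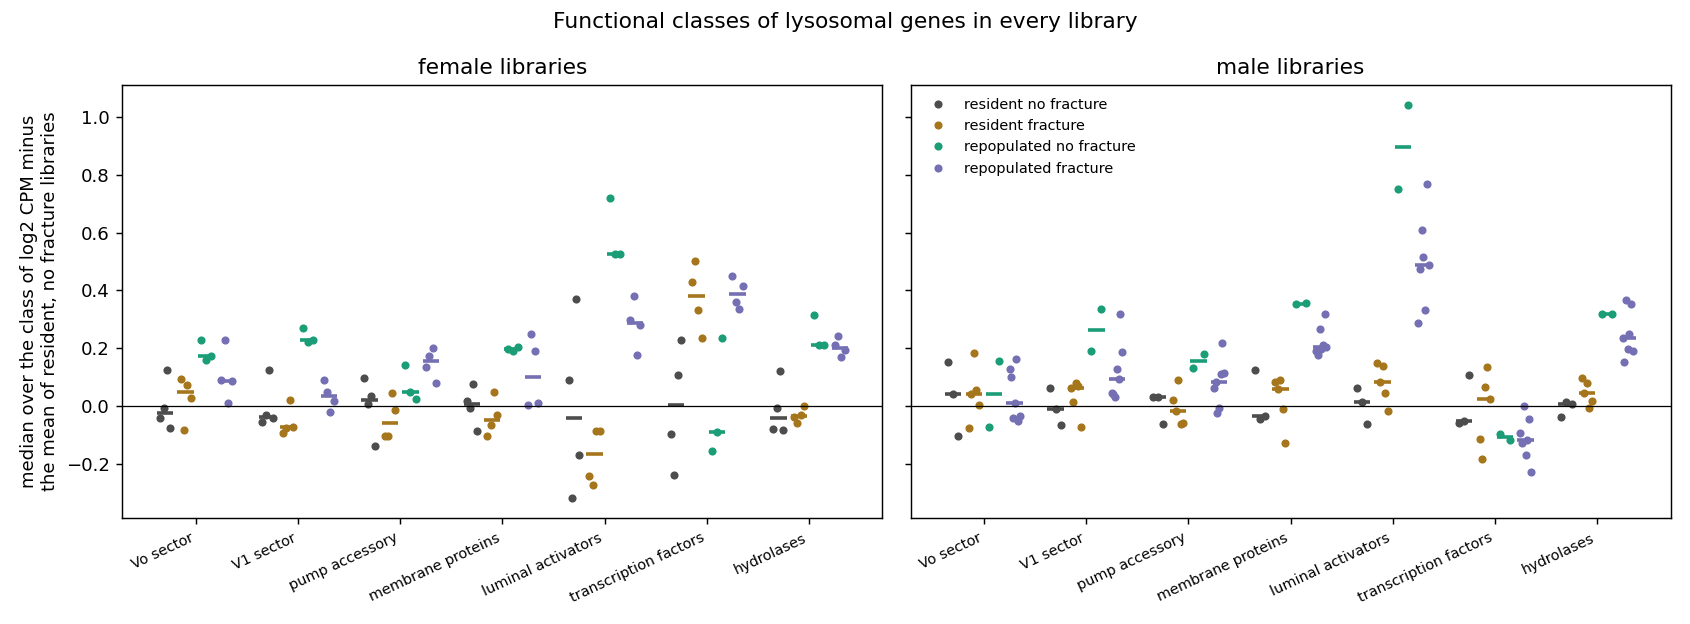
Median over the genes of each role of the log2 counts-per-million minus the mean of the resident, no fracture libraries of the same table (vertical axis), in every library (points) of 4 groups, with group medians (lines), for female and male tables. Without fracture the repopulated libraries lie highest for the luminal activators (0.52 to 0.72 in females, 0.75 to 1.04 in males); V1 lies at 0.22 to 0.27 and 0.19 to 0.33, also above every resident library, while male Vo, at -0.07 to 0.16, overlaps the resident libraries.

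No member was called between fracture and no fracture in either state. In resident microglia 0 of 46 were called in edgeR's test in females (5 at an unadjusted p under 0.05, and 0 by DESeq2; 0% of all genes called) and 0 in males (0 at an unadjusted p under 0.05 and 0 by DESeq2; 0.00833% of all genes called). Of all genes 4.93% and 4.26% had an unadjusted p under 0.05. In repopulated microglia 0 were called in females (14 unadjusted, 0 by DESeq2; 0% of all genes) and 0 in males (15 unadjusted, 5 by DESeq2; 0.00833% of all genes). Here 10.5% and 8.29% of all genes had an unadjusted p under 0.05, and DESeq2 called 0.673% and 0.483%.

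After fracture 39 of 46 members had negative values in repopulated males. All 17 hydrolases and all 8 membrane proteins had negative values, with medians of -0.10 and -0.14, and the 4 luminal activators had a median of -0.44 with all 4 at an unadjusted p under 0.05; the median of all genes was 0.01. Grn read 7171 and 7940 CPM without fracture and 4226 to 6710 CPM, with a median of 5136, with fracture. Both libraries without fracture lay above all 7 with it, and the log2 fold change was -0.50 ± 0.11 (edgeR adjusted p = 0.204). Gm2a was -0.41 ± 0.08 (adjusted p = 0.185) and Npc2 -0.37 ± 0.11 (adjusted p = 0.349), also without overlap (7.08% of all genes), and Psap -0.47 ± 0.15 (adjusted p = 0.391). DESeq2 called Gm2a, Grn, Naglu, Npc2 and Psap lower. With only 2 libraries without fracture the result turned on single ones: without repopulated, no fracture replicate 1 edgeR called Psap, and without repopulated, fracture replicate 6 it called Gm2a and Grn. Within the V64 to V79 labels 2 members were called lower, beside 28 of all 11999 genes called lower. In females 33 of 46 members had negative values after fracture, in repopulated as in resident libraries. Their medians were -0.11 and -0.03, against -0.01 over all genes. In repopulated females all 8 V1 genes and all 4 luminal activators were negative, with medians of -0.16 and -0.3. Without the 3 libraries that stood apart these were -0.18 and -0.26. Of the 17 hydrolases 6 were positive there. In resident males 27 of 46 members were positive.

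The test of whether the effect of repopulation differed with fracture gave 0 of 46 in females (1 at an unadjusted p under 0.05, 0 by DESeq2; 0% of all genes called by edgeR) and 0 in males (10 unadjusted, 4 by DESeq2; 0.00833% of all genes). Of all genes 3.69% and 7.38% had an unadjusted p under 0.05, and DESeq2 called 0.00748% and 0.408%. In males the 4 luminal activators had a median interaction of -0.53, with Psap at -0.69 ± 0.20 (edgeR adjusted p = 0.393), Grn at -0.63 ± 0.15 (adjusted p = 0.338) and Gm2a at -0.43 ± 0.11 (adjusted p = 0.349). DESeq2 called Gm2a, Grn, Man2b1 and Psap lower in this test. The smaller repopulation values with fracture were thus not shown to differ from those without it by edgeR, and the calls by DESeq2 rest on 2 repopulated libraries without fracture. In females the median interaction of the 4 was -0.15.

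Further lysosomal genes were read from 4 lists of genes that are not members, beside 1.56%, 1.27%, 4.7% and 3.03% of all genes called higher in the 4 comparisons. Of 10 listed pump subunits and assembly factors, 2, 0, 2 and 0 rose and 1 fell, so none rose with fracture. Tcirg1, the a subunit isoform of osteoclasts and immune cells, rose without fracture in females (0.32 ± 0.06, edgeR adjusted p = 0.0173) and in males (0.50 ± 0.14, adjusted p = 0.0272). Atp6v0a2, another isoform, rose in males without fracture by 0.52 ± 0.15 (adjusted p = 0.0331), and Wdr7, a pump-associated protein, fell in males with fracture by 0.83 on the log2 scale (SE 0.22, adjusted p = 0.0294). Of the other hydrolases and luminal proteins (33 listed in females and 34 in males) 2, 3, 13 and 6 rose. Scpep1, a carboxypeptidase, rose in all 4, most in males without fracture (0.95 ± 0.11, adjusted p = 2.05e-05), and Arsg, a sulphatase, fell in males with fracture (-1.01 ± 0.19, adjusted p = 0.0029). Of 29 other membrane proteins 3, 2, 3 and 3 rose. Slc11a1, the metal transporter of phagosomes, rose in all 4 by 0.48 to 0.54, and Tpcn2, a cation channel, by 0.71 to 1.63, while Cd164 fell in 3 of 4, with -0.76 ± 0.13 in females without fracture (adjusted p = 0.00979). Of 21 genes for sorting and nutrient sensing 1, 0, 2 and 0 rose, among them Gnptab, which makes the mannose 6-phosphate tag, in males without fracture (2.04 ± 0.36, adjusted p = 0.00105); these counts lie near the shares of all genes. No gene of these lists was called across fracture in either state or in the interaction.

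Levels of different members can be set side by side only per transcript length. On that scale, in transcripts-per-million (TPM) computed from the estimated counts and annotated lengths and averaged over all libraries of a table, Laptm5 and Lgmn were highest in both tables, at 6165 and 6072 TPM in females and 5300.0 and 5577 TPM in males. Psap followed at 4863 and 3779 TPM and Cd68 at 1818 and 2214 TPM. Of the pump genes Atp6v0b (1049 TPM) and Atp6v0c (964 TPM) were highest in females. Sgsh, the sulphamidase, was lowest of the members measured on this scale, at 16.8 TPM in females and 11.7 TPM in males. Grn and Gla are left out of this scale because some of their transcripts lack a length in the annotation used. Laptm5 and Lgmn, the highest on it, were among the genes called in no comparison.

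Other transcripts moved in the same comparisons. Of the 10 microglial markers 1, 0, 0 and 0 rose and 2, 1, 4 and 2 fell, and their median was -0.24, -0.19, -0.29 and -0.23. P2ry12, a purine receptor of microglia, fell by 0.75 on the log2 scale in females without fracture (SE 0.16, edgeR adjusted p = 0.0283), by 1.12 in males without (SE 0.15, adjusted p = 7.77e-05) and by 0.49 in males with fracture (SE 0.09, adjusted p = 0.00288). Cx3cr1 fell by 0.34 in females with (SE 0.08, adjusted p = 0.0416) and by 0.52 in males without fracture (SE 0.13, adjusted p = 0.02), and Aif1 rose in females without fracture by 0.31 ± 0.07 (adjusted p = 0.0219). The summed level of the 10 was 31210 to 32060 CPM in female and 32090 to 32440 CPM in male repopulated, no fracture libraries, against 31370 to 40810 CPM and 39420 to 42530 CPM in resident ones. With fracture it was 33980 to 35720 CPM in female and 31470 to 39250 CPM in male repopulated libraries, against 36430 to 37080 CPM and 38750 to 42960 CPM in resident ones. Of 12 markers of macrophages of circulating origin 9 were listed (not Ccr2, Ly6c2 or Cd209a), and 4, 4, 3 and 2 of them rose in the 4 comparisons. Pilra rose by 1.80 ± 0.22 in females without fracture (adjusted p = 0.0035) and by 2.57 ± 0.48 in males without (adjusted p = 0.00322), and Lyz2 by 1.21 ± 0.19 (adjusted p = 0.00979) and 1.75 ± 0.38 (adjusted p = 0.01). Their summed level in female libraries was 628 to 1326 CPM in resident, no fracture, 768 to 868 CPM in resident, fracture, 1612 to 2680 CPM in repopulated, no fracture and 1801 to 2161 CPM in repopulated, fracture libraries. In the male groups, in that order, it was 378 to 464, 525 to 1111, 1336 to 2338 and 861 to 2019 CPM. Border-associated macrophage markers had 2 of 6 listed in females and 3 of 6 in males and summed to at most 45.4 CPM in any library. Of the 3 B cell markers read here (Cd79b, Ighd and Ighm) 3, 2, 1 and 2 fell. Ighm, the heavy chain of immunoglobulin M, had log2 fold changes of -0.56 ± 0.08, -0.39 ± 0.08, -0.60 ± 0.11 and -0.28 ± 0.07, with adjusted p of 0.00711, 0.0159, 0.00153 and 0.0212. The 3 summed to 489 to 624.9 CPM in female resident and 343 to 376 CPM in female repopulated libraries without fracture, and to 471 to 543 CPM and 312 to 339.7 CPM in the male ones. With fracture the sums were 545.5 to 600.0 CPM and 389 to 461 CPM in females, and 429 to 528.5 CPM and 332 to 451 CPM in males. Of 5 neutrophil markers Csf3r alone was listed, with resident means of 919 CPM in females with fracture and 399 CPM in males without. It rose in females with (0.37 ± 0.06, adjusted p = 0.00974) and in males without (0.50 ± 0.12, adjusted p = 0.0116) and with fracture (0.36 ± 0.08, adjusted p = 0.0101). The endothelial gene Pecam1 fell in 3 comparisons, with -2.19 ± 0.53 in females without fracture (adjusted p = 0.0456), and endothelial Kdr rose in males without fracture (2.58 ± 0.69, adjusted p = 0.0241). The astrocyte gene Slc1a3 fell in males with fracture (-0.43 ± 0.11, adjusted p = 0.0193). No marker of oligodendrocytes or neurons was called, and none of 5 for T and NK cells was listed. The part of these transcripts in the lysosomal result was not tested.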

How the data were processed

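Spinal cord microglia from 32 mouse libraries were measured by bulk RNA-seq. The values are estimated counts per transcript, deposited by the authors as whole numbers in 1 table for each sex. The submitters' processing notes name the build GRCm38 and, without their roles, RSEM 1.3.1 and STAR 2.7.6a, DESeq2 1.34.0 in R 4.1.3, cutadapt 3.4 and Trim Galore 0.6.7. Per the labels' protocols the female libraries were made from ultra-low input by a company and the male libraries with SMART-Seq v4 and Nextera DNA Flex. No per-sample column lacked a sample.

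Counts were summed by gene identifier and scaled to CPM, counts-per-million of the library total times its TMM factor. Each table was fitted with edgeR 4.0.16 in R 4.3.3 (TMM factors, filterByExpr, which removed no gene, robust quasi-likelihood), with 4 groups in 1 fit and no covariate, and p-values were adjusted by Benjamini-Hochberg over all genes of the table at a threshold of 0.05. The standard error is the log2 fold change divided by the square root of the F statistic. The fit was tested before use on simulated counts with changes put into genes drawn from the whole table, for repopulated against resident without fracture. Of 100 genes changed by 1 on the log2 scale 41 were recovered in females and 32 in males. Of 100 changed by 0.5 the fit recovered 6 and 3, so changes of that size were mostly missed. False calls numbered 3 and 2. Alternatives were library totals alone, DESeq2 1.42.0, no filter, a minimum of 10 CPM, the most abundant transcript, a replicate block, only the groups compared and each library left out. The fit without 3 female libraries and the fits within V64 to V79 and V99 to V110 labels were chosen after seeing the data. The members and lists were chosen with earlier results of these data known. Any member could be named. Those called were given with values in some or all comparisons, as were some that were highest or lowest in their role. Of the other lists only called genes were named. Levels per length used GENCODE M21 transcript lengths, and loci are from M21 on GRCm38. Promoters came from RefSeq; protein sequences were not used here.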

Additional observations from a re-analysis of the deposited data

Results flagged for a closer look

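In 7 of 90 groups of 4 to 10 libraries 1 library stood far from the others of its group by Dixon's test, and chance gives about 1 in 20. In the female table resident, no fracture replicate 3 did so for 3 members: Cd63 read 517.7 CPM against 268 to 306 CPM in the others, Gla 13.68 CPM against 6.48 to 7.44 CPM and Man2b1 2248 CPM against 1741 to 1814 CPM. This library was high for all 3, toward the repopulated levels. Cd63 also read 401.9 CPM in female repopulated, fracture replicate 3 against 539 to 564 CPM, and Asah1 read 947 CPM in female repopulated, fracture replicate 4 against 1064 to 1074 CPM. In the male table Gla read 10.81 CPM in resident, fracture replicate 5 against 4.51 to 5.47 CPM, and Lamp1 read 2954 CPM in repopulated, fracture replicate 6 against 2379 to 2614 CPM.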

How the results depend on the processing

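Every count below is of members called (edgeR unless another tool is named), and every call in repopulated against resident libraries was higher except where given in the report for library totals. No called result changed direction. The median of the 2 transcription factors in females with fracture, 0.01, was -0.19 with the most abundant transcript and -0.08 with library totals alone. In females without fracture (12 called) the count was 3 with the replicate block, 0 in a fit of only the groups compared, 0 without the 3 libraries that stood apart and 1 to 17 with single libraries left out. In females with fracture (7 called) it was 4 with library totals alone, 14 by DESeq2, 16 in a fit of only the groups compared, 11 without the 3 libraries and 4 to 7 in the leave-outs. In males without fracture (16 called) it was 10 to 17 in the leave-outs. In males with fracture (12 called) it was 3 within V64 to V79, 0 within V99 to V110 and 9 to 13 in the leave-outs. Over all genes the main female fit without fracture called 338. The replicate block called 143, only the groups compared 0 and the fit without the 3 libraries 1. In females with fracture 315 genes were called, against 386 with library totals alone, 629 with only the groups compared and 593 without the 3 libraries. In males with fracture 589 genes were called, against 80 within V64 to V79 and 43 within V99 to V110. Between fracture and no fracture in repopulated females (0 called) a fit of only the groups compared gave 1, lower. In repopulated males (0 called) DESeq2 gave 5, the replicate block 3, V64 to V79 2 and the leave-outs 0 to 2, all lower. The male interaction (0 called) gave 4 by DESeq2, 2 with the replicate block, 1 within V64 to V79 and 0 to 1 in the leave-outs, all lower. Fits with fewer libraries have less power, and the other causes were not tested. Of single called members 577 settings kept the call and 174 lost it. Over all genes the counts of calls by DESeq2 and edgeR were 676 and 338, 694 and 315 in females and 1169 and 890, 843 and 589 in males for repopulated against resident. No pairing of libraries by replicate number was seen, and the labels do not state one. For libraries with the same number the correlation of their deviations had a median of -0.01 over 21 female pairs (-0.31 to 0.21). Over 17 male pairs it was -0.01 (-0.08 to 0.05). Libraries with different numbers had medians of 0.01 and 0.0. The deviations were taken within small groups, so this check cannot exclude pairing. Depth, 5722993 to 33697535 counts in the male libraries, limits low genes such as Gla most.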

Other observations

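Lamp1 was the member whose level differed most between the tables. It averaged 75.9 CPM in the female libraries (62.4 to 92.6) and 2317 CPM in the male libraries (1852 to 3056), a ratio of 30.5 from a single listed transcript. The next largest ratio of male over female levels was 2.4, for Tfeb, and the lowest was 0.597, for Mcoln1. The tables differ in sex and in library kit, which cannot be told apart.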
